A study of Mus musculus with 8 samples.

Results

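Genes of the cell cycle and of DNA replication were examined in T cells taken from grafts that were being rejected or tolerated. The members were 34 genes chosen by name, from the cyclins that start S phase to the motors and kinases of mitosis. A member counted as measured where a probe set named that gene alone, and its brightest probe set on average stood for it. This gave 29 measured members of 18820 measured genes. Tyms, Kif20a, Nusap1 and Ccne2 lay only on probe sets shared with another gene, Ccnb1 was listed on no probe set, and the expression of these 5 was not analysed here.

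The hosts were wild-type CD1 mice, an outbred strain, and each carried a graft of tissue derived from human embryonic stem cells. In the rejecting group (4 samples) the host was left untreated. In the tolerant group (4 samples) the host had been injected with anti-CD4 and anti-CD8 antibodies and with an agent the design text writes as CD40L, the name of the helper T cell ligand for CD40. CD3-positive T cells were taken from the grafts at day 30, and their total RNA was labelled with biotin and hybridised to whole-transcript arrays, 1 per sample. The labels number the samples 1 to 4 in each group and do not say whether each came from its own mouse, so p-values reflect the spread among these samples alone, and that spread may be technical. The labels give no host age and no number of cells per sample. In bulk samples such as these, fewer cells of a type and less RNA per cell cannot be told apart.

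A resting T cell leaves G0 when its receptor and growth signals raise the D-type cyclins, which release E2F transcription factors from the retinoblastoma family. E2F then drives cyclin E, the MCM helicase, PCNA and the enzymes that make deoxynucleotides, and DNA is copied. Later, in G2, the MuvB complex with B-MYB and FOXM1 turns on cyclin B, CDK1 and the spindle genes, and proteins such as CDC20 end mitosis. A clonally expanding T cell transcribes this programme strongly, whereas a resting memory or regulatory cell transcribes little of it. Mki67 and Top2a are for that reason widely read as marks of dividing lymphocytes.

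Promoter sequences of the members are shown first, because the programme is switched on through a few short motifs. The window ran from 250 bases before to 50 bases after each annotated start in RefSeq (GRCm38.p6). It was listed for 28 of the 34 members, at 30 starts, because E2f2 and Mcm7 have more than 1. Letters were searched on both strands. The E2F motif was any of 4 words, first TTCCCGC, then TTCGCGC, then TTGCCGC, then TTGGCGC. The CCAAT box, which NF-Y binds, was searched as CCAAT. The cell cycle homology region (CHR), which MuvB binds, was searched as TTTGAA and also as TTCGAA. An E2F match was in 8 of 14 promoters of the G1/S and replication members (57.1%) and in 3 of 16 of the G2/M and mitotic members (18.8%), against 9.57% of all 32851 promoters. A CHR match was in 3 of 14 of the former (21.4%) and 12 of 16 of the latter (75.0%), against 19.2% of all promoters. CCAAT was in 11 of 14 and 14 of 16 (78.6% and 87.5%), against 37.4% of all. Among promoters of protein-coding genes the shares were 12.1% for E2F, 17.6% for CHR and 38.2% for CCAAT. E2F and CCAAT letters overlapped in 2 member promoters, those of Ccnb1 and Mcm7, and a match is a description of letters and not of binding. Of the 30 promoters, 5 (16.7%) held none of the 3 motifs, those of Ccne1, E2f1, Tyms, Birc5 and Nusap1, against 45.6% of all promoters.

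The promoters below show both types, and capitals mark E2F, CCAAT and CHR matches on either strand. E2f2 (its first start, chr4:136172024-136172323, plus strand) and Mcm6 (chr1:128359656-128359955, minus strand) stand for the G1/S type. The second E2f2 start, not printed, held no E2F match, 3 CCAAT boxes and 1 CHR match. Cdc20 (chr4:118437294-118437593, minus strand) and Top2a (chr11:99024140-99024439, minus strand) stand for the mitotic type. Cdk1 (chr10:69352863-69353162, minus strand) was 1 of 3 among the 30 member promoters that held all 3 motifs, against 0.499% of all promoters.
E2f2: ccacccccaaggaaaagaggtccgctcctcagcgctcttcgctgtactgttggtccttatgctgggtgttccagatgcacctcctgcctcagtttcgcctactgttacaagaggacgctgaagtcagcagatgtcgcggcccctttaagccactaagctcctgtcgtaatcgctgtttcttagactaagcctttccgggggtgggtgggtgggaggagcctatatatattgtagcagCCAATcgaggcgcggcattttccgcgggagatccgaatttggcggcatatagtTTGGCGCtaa
Mcm6: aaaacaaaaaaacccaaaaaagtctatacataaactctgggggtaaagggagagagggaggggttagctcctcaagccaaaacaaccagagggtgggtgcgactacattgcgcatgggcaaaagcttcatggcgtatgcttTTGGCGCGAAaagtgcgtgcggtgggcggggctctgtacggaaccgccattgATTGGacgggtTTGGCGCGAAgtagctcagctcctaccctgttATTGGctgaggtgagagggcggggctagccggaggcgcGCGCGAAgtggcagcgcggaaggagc
Cdc20: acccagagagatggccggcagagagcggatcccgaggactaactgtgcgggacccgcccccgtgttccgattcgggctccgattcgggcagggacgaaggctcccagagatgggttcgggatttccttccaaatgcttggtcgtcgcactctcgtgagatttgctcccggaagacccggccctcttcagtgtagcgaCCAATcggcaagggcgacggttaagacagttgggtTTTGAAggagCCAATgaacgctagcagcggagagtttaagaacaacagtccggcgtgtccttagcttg
Top2a: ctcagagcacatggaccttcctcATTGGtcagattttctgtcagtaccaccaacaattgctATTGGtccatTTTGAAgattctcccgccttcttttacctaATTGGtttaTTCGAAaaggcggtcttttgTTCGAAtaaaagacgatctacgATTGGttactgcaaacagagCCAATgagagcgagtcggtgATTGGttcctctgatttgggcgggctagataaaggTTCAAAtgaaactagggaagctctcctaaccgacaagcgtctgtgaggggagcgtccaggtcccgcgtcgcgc
Cdk1: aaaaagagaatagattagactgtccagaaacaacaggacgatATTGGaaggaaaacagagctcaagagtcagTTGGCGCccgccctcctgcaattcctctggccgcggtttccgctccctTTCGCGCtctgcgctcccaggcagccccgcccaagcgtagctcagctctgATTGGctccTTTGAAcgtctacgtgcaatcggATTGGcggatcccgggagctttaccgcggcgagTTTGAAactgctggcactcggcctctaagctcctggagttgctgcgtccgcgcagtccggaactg
Mcm6 held 5 E2F matches, counted on both strands where they overlap, 2 CCAAT boxes and no CHR. Top2a, whose product untangles chromosomes before they separate, held 6 CCAAT boxes and 4 CHR matches and no E2F match. In Cdc20, a CHR lay between a pair of CCAAT boxes, and in E2f2 the E2F match lay a few bases before the end of the window.

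**Figure D1:**
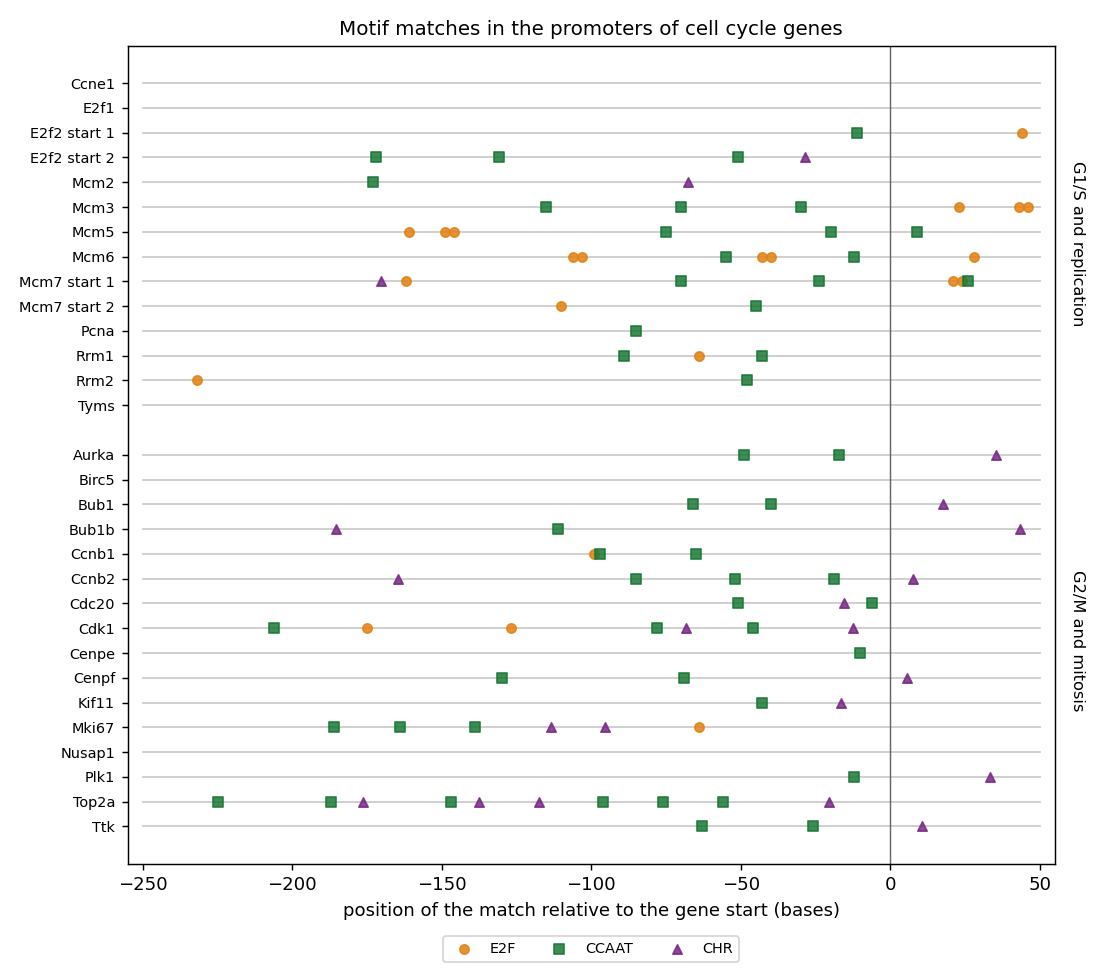
Positions (bases from the gene start) of E2F (orange circles), CCAAT (green squares) and CHR (purple triangles) matches in the 30 promoter windows of cell cycle members, from 250 bases before to 50 bases after the gene start (vertical line). E2F matches gather in the upper block of G1/S and replication genes (8 of 14 promoters) and CHR matches in the lower block of mitotic genes (12 of 16).

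The arrays themselves set the limit on what these genes can show. Values are the RMA values that the authors deposited, RMA being a method that subtracts background and scales arrays together. They were taken as log2, although the log base was not given. A further quantile normalization still changed some differences, that of E2f2 over the 8 arrays from 0.23 to 0.59. A background line was drawn for each array at the 99th percentile of 1182 odorant and pheromone receptor probe sets, which T cells are not known to use, and it lay between 0.99 and 1.35. Of all 21218 single-gene probe sets, 2.54% to 5.73% lay above it on the arrays numbered 1 and 2 and 10.7% to 17.1% on those numbered 3 and 4, with rejecting and tolerant samples in both sets. Each comparison was therefore made on the 8 arrays together and in either set alone, a division taken from earlier results of these data. Within a set the share above the line also differed between the groups. It was 5.03% and 5.73% in rejecting samples 1 and 2 against 2.77% and 2.54% in the tolerant ones. In rejecting samples 3 and 4 it was 15.1% and 10.7%, against 17.1% in each of the tolerant ones. The part of this in the differences within a set was not tested. Of 7 measured T cell markers, Cd3e and Cd5 were above the line on 5 arrays each, and Cd3d and Cd247 on 0.

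Nearly every proliferation gene read at background in both groups. Of the 29 members, 24 (82.8%) were above the line on 0 of the 8 arrays, against 73.6% of all probe sets. On single arrays, 0 to 4 of the 29 members exceeded the line. At least 2 arrays showed signal for 4 members (13.8%), E2f2, Cdc20, E2f1 and Pcna, against 17.3% of all probe sets. Aurkb was above the line on 1 array, rejecting sample 3, where its value and the line were both 1.01. The member median lay between the 40.1 and 64.3 percentile of all probe sets on the 8 arrays, near the middle of the table. A value at background does not show that a transcript was absent.

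**Figure D2:**
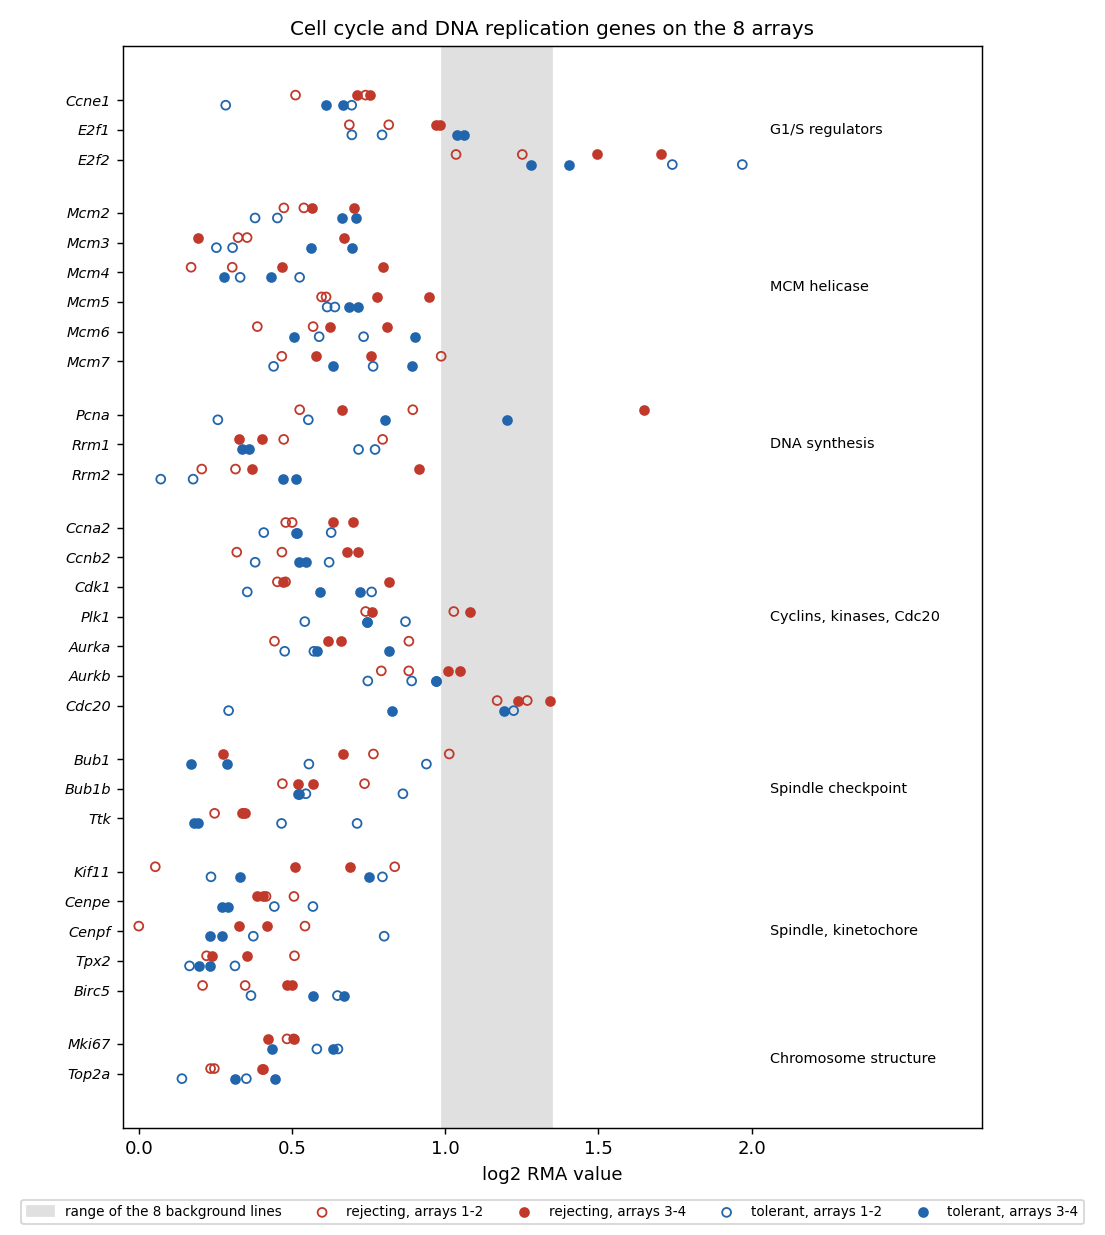
Log2 RMA values of the 29 measured members on each array, red for rejecting and blue for tolerant samples, open for arrays numbered 1 and 2 and filled for 3 and 4. The grey band spans the 8 background lines, 0.99 to 1.35, and a point inside the band can lie below its own array's line, as those of Plk1 and Bub1 do. Only E2f2, Cdc20, E2f1, Pcna and Aurkb exceed the line of their array.

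The G1/S regulators held the brightest member. E2f2 (probe set 10509168), of the E2F family, read 1.04, 1.25, 1.70 and 1.497 in rejecting samples 1 to 4. In tolerant samples 1 to 4, E2f2 read 1.74, 1.97, 1.40 and 1.28. It was above the line on 7 of the 8 arrays, and the groups overlapped over all 8. On the arrays numbered 1 and 2 both tolerant values lay above both rejecting ones, and on those numbered 3 and 4 both lay below. The difference, tolerant minus rejecting, was 0.71 (SE 0.17, limma adjusted p = 0.936) on arrays 1 and 2 and -0.26 (SE 0.12, limma adjusted p = 0.710) on arrays 3 and 4. The change of direction between the sets was -0.97 (SE 0.21), and limma's interaction test did not pass over all probe sets (adjusted p = 0.231). Over the 8 arrays the means were 1.37 ± 0.29 and 1.60 ± 0.32 (SD, n = 4 each, limma adjusted p = 1). That difference of 0.23 was 0.59 with quantile normalization, 0.05 with array weights, 0.11 without rejecting replicate 1 and 0.10 without tolerant replicate 2. On arrays 3 and 4 it was -0.16 without rejecting replicate 3, and quantile normalization gave -0.39.

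E2f1 (10488785), the founding member of the family, read 0.69, 0.82, 0.98 and 0.97 in the rejecting samples, and the tolerant samples read 0.70, 0.79, 1.06 and 1.04. The arrays numbered 3 and 4 were high in both groups, all 4 above all 4 of those numbered 1 and 2. Only the tolerant ones of them passed the line, and by little. Their lines lay at 1.05 and 0.99, and those of rejecting samples 3 and 4 at 1.01 and 1.14. The E2f1 difference was 0.07 (SE 0.10, limma adjusted p = 0.879) on arrays 3 and 4, small although those groups did not overlap. Ccne1, cyclin E1, which activates CDK2 for S phase, read between 0.28 and 0.76 and was above the line on 0 arrays.

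Subunits of the replicative helicase were at background throughout. Mcm2 to Mcm7 encode the ring that unwinds DNA at the fork, and the 6 genes read between 0.17 and 0.99 on the 8 arrays. Mcm3 (10353420) read 0.35, 0.32, 0.67 and 0.19 in the rejecting samples, and the tolerant samples read 0.25, 0.31, 0.70 and 0.56. Its high values came from rejecting sample 3 and tolerant samples 3 and 4, and the groups overlapped. Mcm4 (10437945) read 0.17, 0.31, 0.47 and 0.80 in the rejecting samples, and the tolerant samples read 0.33, 0.52, 0.43 and 0.28, rejecting sample 4 being the highest. Their differences on arrays 3 and 4 were 0.20 (SE 0.18) and -0.28 (SE 0.15), and the lowest adjusted p among the 6 subunits there was 0.730 by limma. The Mcm4 difference on these arrays was -0.11 without rejecting replicate 4 and -0.44 without rejecting replicate 3, and that of Mcm3 was -0.04 and 0.43 without the same arrays. Mcm2 and Mcm5 were higher on all 4 arrays numbered 3 and 4 than on all 4 numbered 1 and 2, by 0.20 and 0.17, and 5 of the 29 members did so, the others being E2f1, Rrm2 and Aurkb. Among all probe sets 10.1% did. The reverse, all 4 lower, held for Rrm1 and Cenpe, against 5.99% of probe sets.

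Pcna (10487930), the sliding clamp that holds DNA polymerase on its template, varied the most of all members. It read 0.89, 0.53, 0.66 and 1.65 in the rejecting samples, and the tolerant samples read 0.55, 0.26, 0.80 and 1.20. Sample 4 was the highest in each group and alone above the line. A second Pcna probe set (10461391) read 1.63 and 1.18 on the same arrays and 0.31 to 0.89 on the other 6, and the files do not say whether the probe sets share probes. The difference on arrays 3 and 4 was -0.15 (SE 0.34, limma adjusted p = 0.929), and it was 0.34 without rejecting replicate 4 and 0.04 without tolerant replicate 3. Rrm1 and Rrm2, the subunits of ribonucleotide reductase, which makes deoxynucleotides, read 0.33 to 0.80 and 0.07 to 0.92, with rejecting sample 4 the highest for Rrm2. That array held the highest value of 9 of the 29 members, and of 11.5% of all probe sets.

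Among the cyclins and kinases that drive mitosis, Cdc20 alone had signal on several arrays. Cdc20 (10515744), the activator of the anaphase-promoting complex, read 1.17, 1.27, 1.24 and 1.34 in the rejecting samples, and the tolerant samples read 1.22, 0.29, 0.83 and 1.19. Rejecting samples lay close together and tolerant sample 2 was far below the rest, and the groups overlapped because tolerant samples 1 and 4 exceeded rejecting sample 1. The means were 1.25 ± 0.07 and 0.88 ± 0.43 (SD, n = 4 each). Its difference over the 8 arrays, -0.37 (SE 0.19), had the smallest unadjusted p of any member (limma adjusted p = 1), and without tolerant replicate 2 it was -0.17. On arrays 3 and 4 it was -0.28 (SE 0.15, limma adjusted p = 0.730), and it was -0.10 without tolerant replicate 3 and -0.46 without tolerant replicate 4. Ccna2, Ccnb2, Cdk1, Plk1 and Aurka, the cyclins and kinases of mitotic entry and the spindle poles, read between 0.32 and 1.08 and were above the line on 0 arrays. Aurkb, the kinase that corrects chromosome attachments, read between 0.75 and 1.05.

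Spindle and checkpoint genes were at background on every array. The checkpoint kinases Bub1 and Ttk and the pseudokinase Bub1b read between 0.17 and 1.01. The motor Kif11, the kinetochore proteins Cenpe and Cenpf, the spindle assembly factor Tpx2 and Birc5 read between 0.00 and 0.84. Birc5 (10382998), the survivin subunit of the Aurora B complex, read 0.21, 0.35, 0.48 and 0.50 in the rejecting samples, and the tolerant samples read 0.65, 0.37, 0.57 and 0.67. Tolerant values were mostly the higher, and tolerant sample 2 lay among the rejecting ones. Its difference over the 8 arrays was 0.18 (SE 0.11, limma adjusted p = 1). A second probe set of Kif11 and both others of Top2a were also below the line on all 8 arrays.

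Mki67 (10568714), which coats mitotic chromosomes, had the narrowest range of all members. It read 0.51, 0.48, 0.42 and 0.51 in the rejecting samples, and the tolerant samples read 0.58, 0.65, 0.44 and 0.63, all far below the line. The means were 0.48 ± 0.04 and 0.58 ± 0.10 (SD, n = 4 each). Their difference of 0.10 had a 95% interval from -0.09 to 0.29 (limma adjusted p = 1). Top2a read 0.14 to 0.44. Mki67 and Top2a were chosen for these values after they were seen.

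No member passed the test between tolerant and rejecting samples in any comparison. Over all 8 arrays limma called 0 of 29 members, 0% of all probe sets passed, and 0 members reached an unadjusted p under 0.05, against 2.89% of probe sets. The member differences ran from -0.37 to 0.23, with a median of -0.02 against 0.00 over all probe sets, and 12 of 29 were above 0, against 50.1%. Groups that did not overlap were seen for 0 members, against 2.22% of probe sets. The 95% intervals had a median half-width of 0.27, and each of the 29 excluded a difference of 1 in either direction. A difference of 1 is a doubling of measured signal if the log base is 2. For probe sets at background that interval concerns the signal and sets no bound on the transcript.

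On the arrays numbered 3 and 4, where more genes were detected, 21 of 29 members read slightly lower in tolerant samples and 0 passed. Limma called 0 of 29, against 0.0518% of probe sets, and 0 reached an unadjusted p under 0.05, against 7.21%. The median difference was -0.08 against -0.01 over all probe sets, and 8 of 29 members were above 0, against 48.2%. Without rejecting replicate 4 that member median was -0.04, and without rejecting replicate 3 it was -0.12. The median level of the members was 0.67 in rejecting sample 4 and 0.58 in rejecting sample 3, against 0.57 and 0.58 in tolerant samples 3 and 4. Both tolerant values lay below both rejecting ones for 13 members (44.8%), against 20% of probe sets, and above for 2, Birc5 and E2f1 (6.90%), against 19.3%. Of the 7 measured cyclins, kinases and Cdc20, 5 were among these 13 (Ccna2, Ccnb2, Plk1, Aurkb and Cdc20), the others being Ccne1, E2f2, Mcm4, Mcm5, Ttk, Cenpe, Cenpf and Tpx2. Sizes were small, from -0.28 to 0.20 over the 29 members. Probe sets never above the line, as 24 members were, also leaned this way, with a median of -0.02, 56.1% lower and 22.5% with tolerant values below. On the same arrays, kidney tubule, fibroblast and macrophage markers read higher in tolerant samples, and B cell markers did not. The mean level of 8 kidney tubule markers was 0.85 and 0.91 in rejecting samples 3 and 4 against 2.71 and 2.17 in the tolerant ones, with 8 of 8 higher, 2 of them called by limma, and Kl above the line on 0 arrays. For 7 fibroblast markers it was 1.90 and 1.57 against 2.91 and 2.76, with 7 of 7 higher, 0 called, and Lum and Pdgfra above the line on 0 arrays. For 7 macrophage markers it was 1.27 and 0.57 against 1.77 and 2.09, with 7 of 7 higher, 0 called, and Adgre1 above the line on 0 arrays. For the 7 T cell markers it was 0.93 and 1.08 against 1.16 and 1.57, with 6 of 7 higher and 0 called. Of 4 endothelial markers 3 were higher, with a median difference of 0.07 and the largest, 1.25, in Emcn, and 0 were called. Of 3 B cell markers 1 was higher, with a median of -0.05, and 0 were called. Their part in the member differences was not tested.

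On the arrays numbered 1 and 2 the members were divided between higher and lower values. Limma called 0 of 29 members, with 0% of probe sets called, and E2f2 alone reached an unadjusted p under 0.05, against 5.15%. The median difference was 0.02 and 16 of 29 members were above 0, against 49.4%. Tolerant values lay above rejecting ones for 7 members, against 17.2% of probe sets, and below for 3, against 17.1%. Limma's interaction, the difference between the sets, called 0 members, with 0.0566% of probe sets called, and its lowest adjusted p among members was 0.231, for E2f2. At an unadjusted p under 0.05 it held 2 members, E2f2 and Ttk (6.90%), against 7.13% of probe sets.

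**Figure D3:**
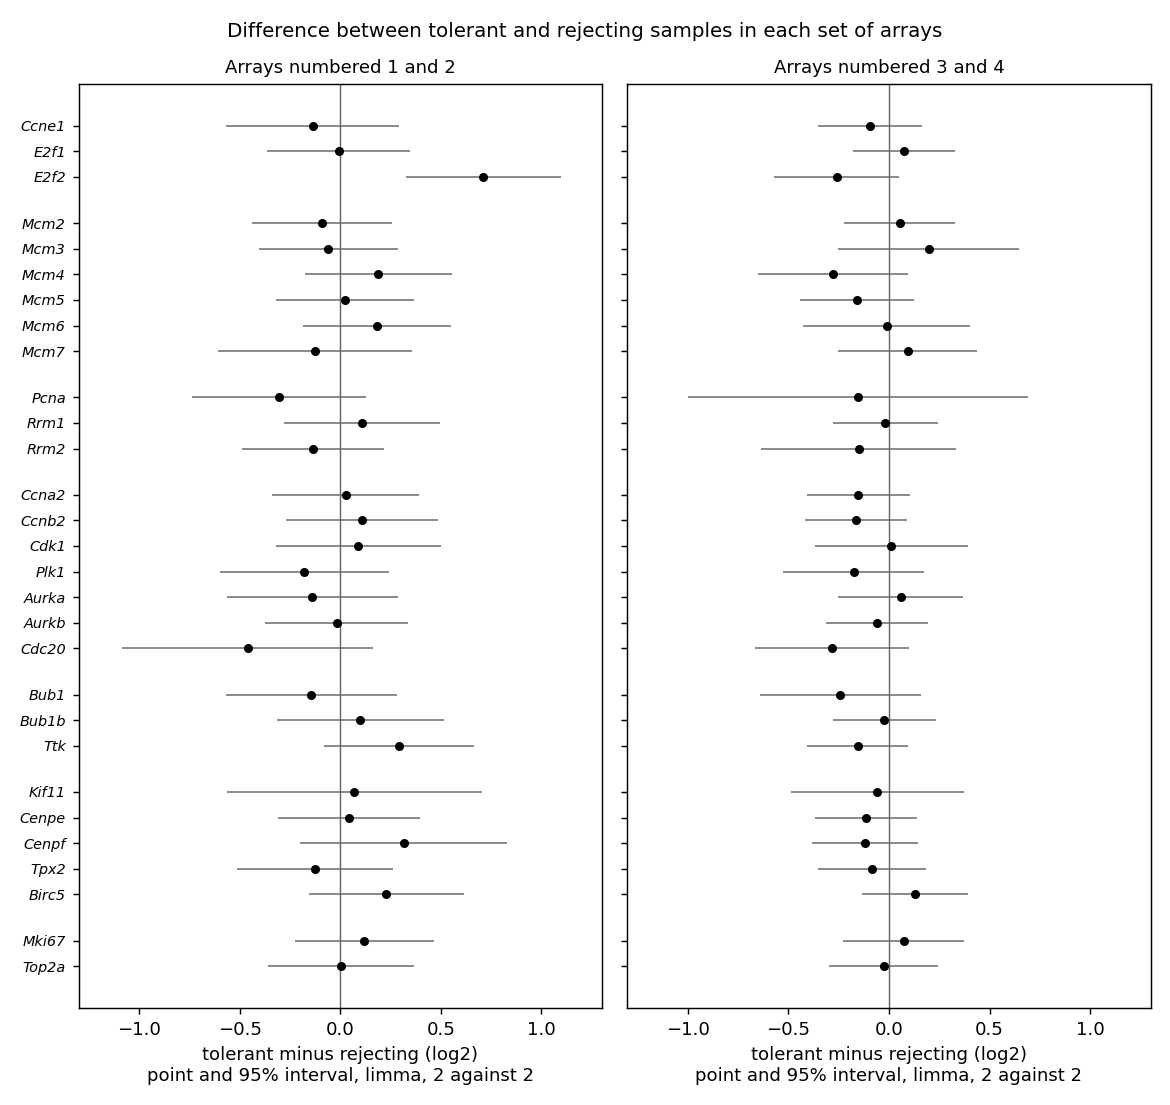
Tolerant minus rejecting difference (log2) of each member with its 95% interval from limma, for arrays numbered 1 and 2 (left) and 3 and 4 (right), 2 samples against 2 in each. E2f2 is the single member whose interval leaves 0, on the left at 0.71, and on the right 21 of 29 points lie below 0.

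The wider replication and mitotic machinery likewise held no called gene. Of 38 other replication genes (origin recognition, helicase loading, polymerases, clamp loader), 0 passed in any of the 3 comparisons. The brightest were Rfc5, a clamp loader subunit, Tk1, thymidine kinase, and Pold1, the catalytic subunit of polymerase delta. Their differences over the 8 arrays were 0.20, 0.29 and 0.21. On arrays 3 and 4, Rfc5 read 1.06 and 1.31 in rejecting samples against 0.81 and 1.39 in tolerant ones. Tk1 read 0.81 and 1.48 there against 1.40 and 1.46, and Pold1 read 1.11 and 1.28 against 1.40 and 1.32. The median difference of the 38 was -0.07 on arrays 3 and 4, with 14 higher, and 0.06 on arrays 1 and 2, with 25 higher. Of 42 other mitotic genes, 0 passed in those comparisons. On arrays 3 and 4 their median difference was -0.11 with 9 of 42 higher, and on arrays 1 and 2 it was 0.08 with 29 of 42 higher. Tolerant values lay below rejecting ones for 17 (40.5%, against 20% of probe sets) and above for 1 (2.38%, against 19.3%) on arrays 3 and 4. On arrays 1 and 2 they lay below for 1 (2.38%, against 17.1%) and above for 10 (23.8%, against 17.2%). Cenpa, the centromeric histone, was the brightest and read 1.31 and 1.51 in rejecting samples 3 and 4 against 1.04 and 0.84 in the tolerant ones. That difference was -0.47 (SE 0.13, limma adjusted p = 0.522). In rejecting samples 1 and 2 Cenpa read 1.31 and 0.74 against 1.15 and 0.92 in the tolerant ones, and those groups overlapped. Mybl2, which encodes B-MYB, and Cks1b, a CDK subunit, had differences of -0.04 and -0.06 on arrays 3 and 4.

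G1 entry genes and cell cycle brakes were above the line at a higher share than the members on each of the arrays numbered 3 and 4, and their median differences there were above 0. Of 10 G1 genes, 2 to 4 were above the line on each of these arrays. All 10 had differences above 0 there (median 0.14), against 48.2% of all probe sets, and 0 passed. Cdk4, the partner of the D cyclins, and Ccnd2, a lymphocyte D cyclin, had differences of 0.08 and 0.20. Ccnd1 is a D cyclin better known from connective tissue and epithelium than from lymphocytes. It read 0.96 and 0.73 in rejecting samples 3 and 4 against 2.36 and 1.56 in the tolerant ones. That difference was 1.12 (SE 0.27, limma adjusted p = 0.428). In rejecting samples 1 and 2 Ccnd1 read 1.16 and 0.61 against 1.14 and 0.94 in the tolerant ones, and those groups overlapped. Of 18 brakes, which hold cells in G0 or G1, 4 to 7 were above the line on each of the arrays numbered 3 and 4. Differences there were above 0 for 11 of them (61.1%, median 0.10), against 48.2% of all probe sets, and 0 passed. Probe sets above the line on at least 1 array also leaned upward there, with a median of 0.07 and 39.7% lower in tolerant samples. The kidney, fibroblast and macrophage markers moved on these same arrays, and their part in both lists was not tested. Btg1, an antiproliferative factor of resting lymphocytes, read 1.84, 1.53, 2.21 and 2.20 in the rejecting samples, and the tolerant samples read 0.74, 0.64, 2.69 and 2.44. Tolerant samples 1 and 2 were thus the lowest and 3 and 4 the highest of the 8, with differences of -0.99 and 0.36 in the 2 sets and an interaction that did not pass (limma adjusted p = 0.0885). Cdkn1c, a CDK inhibitor, was above the line on all 8 arrays, and Klf2, a quiescence factor of naive T cells, on 6. Their differences over the 8 arrays were 0.12 and -0.20.

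**Figure D4:**
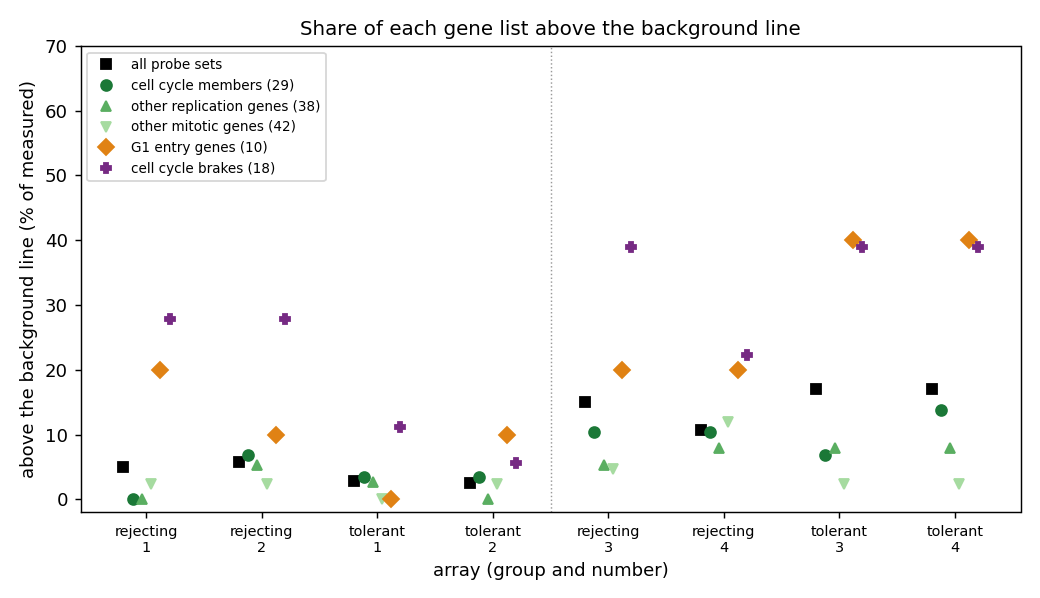
Percent of each gene list above the background line on each array, with arrays numbered 1 and 2 left of the dotted line and 3 and 4 right of it. Cell cycle members (green circles) stay between 0% and 13.8%, and all probe sets (black squares) between 2.54% and 17.1%. Brakes (purple crosses) run from 5.56% to 38.9% and G1 entry genes (orange diamonds) from 0% to 40.0%.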

How the data were processed

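The authors deposited log2 values of 35556 probe sets on 8 arrays, summarised by RMA in Affymetrix Expression Console, per the submitters' processing notes. Versions and log base were not given in the sources used here, and base 2 was taken from the range of the values. RMA compresses differences near background. The platform annotation, matched by Entrez identifier to RefSeq gene names (0 symbols changed), gave 21218 probe sets with 1 symbol, 1881 with several and 12457 with none, and only those with 1 were named or tested. Tests were limma 3.58.1 in R 4.3.3, 2-sided, with Benjamini-Hochberg adjustment over the 21218 and a threshold of 0.05, checked on simulated data. Plots used Python 3.11.15 and matplotlib 3.10.9. The number of arrays limits the precision. The members, lists and array sets were chosen with earlier results of these data known.

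Values on every array are given for members above the line on at least 2 arrays and for the 3 in each direction with the smallest p on arrays 3 and 4. The 3 genes of highest mean are named from each other list. Deviations from the group means correlated between same-numbered samples (0.499, 0.507, 0.410 and 0.599 for numbers 1 to 4). Differently numbered samples of 1 array set correlated about as well (0.411 to 0.581), so this follows the array sets, and the block was an alternative. Other alternatives were the array set as a block, leaving out each array, quantile normalization, median centring, an intensity trend, averaging the probe sets of a gene, a filter on dim probe sets, all probe sets and, added after the data were seen, array weights.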

Additional observations from a re-analysis of the deposited data

Results flagged for a closer look

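In 58 groups of 4 arrays (29 members in each group of samples), 3 held a sample far from the other 3, and chance flags about 1 in 20. Cdk1 read 0.82 in rejecting sample 4 against 0.45 to 0.48 in the other rejecting samples. Bub1b read 0.86 in tolerant sample 1 against 0.52 to 0.55. Ttk read 0.25 in rejecting sample 1 against 0.34 to 0.35. All of these values lie below the background line of their array.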

How the results depend on the processing

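Members called numbered 0 in every comparison under every alternative run. With the replicate block, probe sets called numbered 0 over the 8 arrays, 8 on arrays 3 and 4 and 0 on arrays 1 and 2, members called stayed at 0, and the block was not run for the difference between the array sets. The 11 probe sets called on arrays 3 and 4 became 6 with quantile normalization, 5 with the filter on dim probe sets and 0 when all probe sets were tested. The 12 called for the difference between the sets became 0 with quantile normalization and 0 with all probe sets. The causes were not tested. E2f1 over the 8 arrays, 0.03, turned to -0.000105 with quantile normalization. E2f2 over the 8 arrays, 0.23, became 0.59 with quantile normalization and 0.05 with array weights. The filter on dim probe sets left 4 members over the 8 arrays, 4 on arrays 3 and 4 and 1 on arrays 1 and 2, so no member median was taken there.

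Leaving out each array in turn gave 0 to 48 probe sets called on arrays 3 and 4, 0 to 2 on arrays 1 and 2 and 0 to 76 for the difference between the sets, each highest without rejecting replicate 4 except on arrays 1 and 2, where it was without tolerant replicate 2. The member median ran from -0.117 to -0.0385 on arrays 3 and 4 and from -0.147 to 0.0310 for the difference between the sets. Over the 8 arrays the difference ran from -0.0257 to 0.101 for E2f1, -0.0110 to 0.164 for Mcm3, -0.132 to 0.0773 for Mcm4, -0.395 to 0.00938 for Pcna and 0.103 to 0.337 for E2f2. On arrays 3 and 4 it ran from -0.0395 to 0.434 for Mcm3, -0.648 to 0.338 for Pcna, -0.464 to -0.0992 for Cdc20, -0.442 to -0.112 for Mcm4 and -0.362 to -0.156 for E2f2. On arrays 1 and 2 it ran from -0.0711 to 0.0575 for E2f1 and -0.925 to 0.00480 for Cdc20. With 1 array left in a group, that array was assumed to vary like the others.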
